A study of Mus musculus with 10 samples.

Results

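The 10 genes Aqp4, Kcnj10, Kcnj16, Aldh1l1, Sox9, Fgfr3, Slc4a4, Agt, Acsbg1 and S100b were taken as homeostatic identity genes of astrocytes of the mouse brain. Whether they tell resting from reactive astrocytes was not tested. Their rows were found by Ensembl identifier in a count table of 55536 genes, and all 10 were present and among the 20301 genes with enough counts to be tested. They were followed across 10 libraries of ribosome-bound RNA from the primary somatosensory cortex (S1DZ) of 3 kinds of mice. In every mouse a virus (AAV5-EF1α-Flex-EGFPL10a) supplied a GFP-tagged ribosomal protein, L10a, that is switched on only by Cre, and an antibody to GFP then pulled down the ribosomes of the cells with Cre (translating ribosome affinity purification, TRAP). Cre was driven from the gene of an interleukin-17 receptor subunit: 3 libraries came from Il-17rb-Cre mice, 3 from Il-17ra-Cre mice and 4 from Il-17rc-Cre mice. All 3 groups got the virus, at 400 nl per side, 4 weeks before the pull-down. There was no group without Cre or without virus, and whole-tissue RNA was not analysed here, so each level is relative to another pull-down. The labels give no age of the animals. Nor do they tell if each replicate is an animal of its own, and p-values therefore rest on a spread among libraries that may be technical.

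Astrocytes are the glial cells that take up potassium, water, bicarbonate and transmitters around synapses and wrap blood vessels with their endfeet. Aqp4 (a water channel), Kcnj10 and Kcnj16 (subunits of an inwardly rectifying potassium channel) and Slc4a4 (a sodium bicarbonate cotransporter) carry out that work at the membrane. Sox9, a transcription factor, and Fgfr3, a receptor for fibroblast growth factors, belong to the programme that sets and keeps the glial fate. Aldh1l1 (a folate enzyme) and Acsbg1 (an enzyme that activates long fatty acids) are metabolic enzymes, while Agt (angiotensinogen) is secreted and S100b is a calcium-binding protein that astrocytes can release. On GRCm38, by the GENCODE M21 annotation, the positions are Kcnj10 (ENSMUSG00000044708) at chr1:172341210-172374085, Kcnj16 (ENSMUSG00000051497) at chr11:110968033-111027968 and Sox9 (ENSMUSG00000000567) at chr11:112782224-112787760. Further positions are Fgfr3 (ENSMUSG00000054252) at chr5:33721674-33737068, Slc4a4 (ENSMUSG00000060961) at chr5:88886818-89239653 and Aldh1l1 (ENSMUSG00000030088) at chr6:90486427-90600203, followed by Acsbg1 (ENSMUSG00000032281) at chr9:54604877-54661870, Agt (ENSMUSG00000031980) at chr8:124556534-124569706 and S100b (ENSMUSG00000033208) at chr10:76253853-76261159. The genes are not exclusive to astrocytes: S100b and Kcnj10 are also made by cells of the oligodendrocyte lineage, and Sox9, Aqp4 and S100b by ependymal cells.

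The libraries held between 39692925 and 165844244 counts, the highest being Il-17ra-Cre replicate 3. Levels are given in CPM, the counts of a gene in every 1000000 counts of a library after TMM scaling of library sizes. Il17rb, the gene whose driver names that group, was at 0.657, 0.614 and 0.872 CPM in the libraries labelled Il-17rb-Cre and at 0.0667 to 3.75 CPM in the other 7. Il17rb and Il17ra passed the test in none of the 3 comparisons. Il17rc was at 1.03 to 3.19 CPM in Il-17rb-Cre, 21.4 to 41.2 CPM in Il-17ra-Cre and 20.3 to 39.9 CPM in Il-17rc-Cre libraries, lower in Il-17rb-Cre in both comparisons (edgeR adjusted p = 0.000197 and 0.00016) and overlapping between the other 2 groups (edgeR adjusted p = 0.963). The driver transcripts therefore do not check the labels Il-17rb-Cre and Il-17ra-Cre, nor tell Il-17rc-Cre from Il-17ra-Cre. Il-17ra-Cre replicate 3 stood apart from replicates 1 and 2: its summed oligodendrocyte markers were at 5151 CPM, against 29880 and 43540 CPM there.

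The stretches upstream of 5 of the genes are shown because their transcripts mark the ends of the range described here: Acsbg1 had the highest level per length in 2 groups, S100b and Agt were among those least reduced in Il-17rb-Cre, and Kcnj10 and Kcnj16 are the channel pair whose ratio differed between libraries. Promoter windows from RefSeq were used for 8 of the 10 genes, and Aqp4 and Sox9 are named only. The windows used numbered 13 on GRCm38.p6, each of 250 bases before the start and 50 after it. The 250 bases before the start are printed 5′ to 3′ on the gene's strand: Acsbg1 at chr9:54661886-54662135, minus strand, S100b at chr10:76253586-76253835, plus strand, Agt at chr8:124569707-124569956, minus strand, Kcnj10 at chr1:172340960-172341209, plus strand, and the first of 4 Kcnj16 windows at chr11:110967783-110968032, plus strand. Capitals mark matches to 4 searched motifs: the NFI half-site TTGGCA, the SOX core ACAATG, the STAT motif TTCNNNGAA and the TATA box TATAAA. A match is a run of letters and was not tested as a binding site.
Acsbg1: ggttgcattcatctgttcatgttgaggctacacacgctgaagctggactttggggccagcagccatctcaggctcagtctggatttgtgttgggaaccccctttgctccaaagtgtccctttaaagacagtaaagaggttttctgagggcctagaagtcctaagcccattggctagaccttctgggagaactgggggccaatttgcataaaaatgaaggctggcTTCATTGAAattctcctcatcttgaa
S100b: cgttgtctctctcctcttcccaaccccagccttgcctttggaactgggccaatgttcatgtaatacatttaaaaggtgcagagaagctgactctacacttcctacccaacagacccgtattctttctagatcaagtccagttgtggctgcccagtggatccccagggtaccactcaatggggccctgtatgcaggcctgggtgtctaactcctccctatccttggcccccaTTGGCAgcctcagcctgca
Agt: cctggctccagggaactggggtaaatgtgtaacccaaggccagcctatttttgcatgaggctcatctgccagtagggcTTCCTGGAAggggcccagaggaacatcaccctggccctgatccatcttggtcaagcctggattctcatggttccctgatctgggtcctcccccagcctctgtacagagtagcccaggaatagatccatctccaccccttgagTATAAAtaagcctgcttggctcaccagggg
Kcnj10: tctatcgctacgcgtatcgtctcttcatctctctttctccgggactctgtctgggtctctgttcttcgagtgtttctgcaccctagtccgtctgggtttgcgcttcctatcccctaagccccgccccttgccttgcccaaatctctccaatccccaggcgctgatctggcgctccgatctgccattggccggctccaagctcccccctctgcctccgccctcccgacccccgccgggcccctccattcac
Kcnj16: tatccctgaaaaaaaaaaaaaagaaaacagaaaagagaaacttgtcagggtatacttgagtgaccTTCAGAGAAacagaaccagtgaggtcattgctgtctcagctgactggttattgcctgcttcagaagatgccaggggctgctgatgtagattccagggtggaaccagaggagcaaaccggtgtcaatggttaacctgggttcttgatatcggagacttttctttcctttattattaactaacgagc

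The Agt stretch holds a TATA box 30 to 25 bases before the start, at the usual distance of this motif, and a STAT match from 172 to 164 bases before it. The Acsbg1 stretch has a STAT match 26 to 18 bases before the start, and the S100b stretch an NFI half-site 19 to 14 bases before it. The Kcnj16 stretch has a STAT match from 185 to 177 bases before the start, and the Kcnj10 stretch has none of the 4 motifs but a GC content of 63.7% and 21 CpG pairs over its window. The median of all 32851 mouse windows was 52.7% GC and 7 CpG pairs. Searched on both strands over all 300 bases, the NFI half-site was in 3 of the 13 windows (14.1% of all windows), the SOX core in 0 (12.6%), the STAT motif in 3 (8.3%) and the TATA box in 2 (13.6%). Windows of 1 gene are not independent, and 4 of the 13 belong to Kcnj16. A motif not found says only that its letters are not in these windows.

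Levels of different genes were compared per kilobase of annotated exon. In Il-17rb-Cre libraries S100b stood highest, at 39.1, 30.1 and 27.8 CPM per kilobase, followed by Acsbg1 at 8.4, 9.49 and 9.9, without overlap. Aldh1l1 and Sox9 came next and overlapped each other, and the other 6 genes averaged between 0.375 and 1.1 CPM per kilobase, Kcnj16 being the lowest. In Il-17ra-Cre libraries Acsbg1 stood highest at 246, 262 and 149.8 CPM per kilobase and overlapped S100b at 161, 191 and 111. In Il-17rc-Cre libraries Acsbg1, at 465, 319, 419 and 300.2 CPM per kilobase, was above S100b without overlap, at 268, 108, 261 and 131. By their means Sox9, Aldh1l1 and Aqp4 followed in that order in both of these groups, and Slc4a4 and Agt closed the order. Sox9 overlapped Aldh1l1 in both groups, and Aldh1l1 overlapped Aqp4 in Il-17ra-Cre. In Il-17rc-Cre libraries S100b overlapped Sox9 and Slc4a4 overlapped Agt. With the length of the longest transcript in place of all exons, Fgfr3 averaged 20.9 CPM per kilobase in Il-17ra-Cre libraries, above Kcnj10. With all exons it averaged 12.4 there. In Il-17rc-Cre libraries the longest transcript put Fgfr3, at 79.2 CPM per kilobase, above Aqp4, at 77. The place of Fgfr3 in the order thus depends on the length used.

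**Figure D1:**
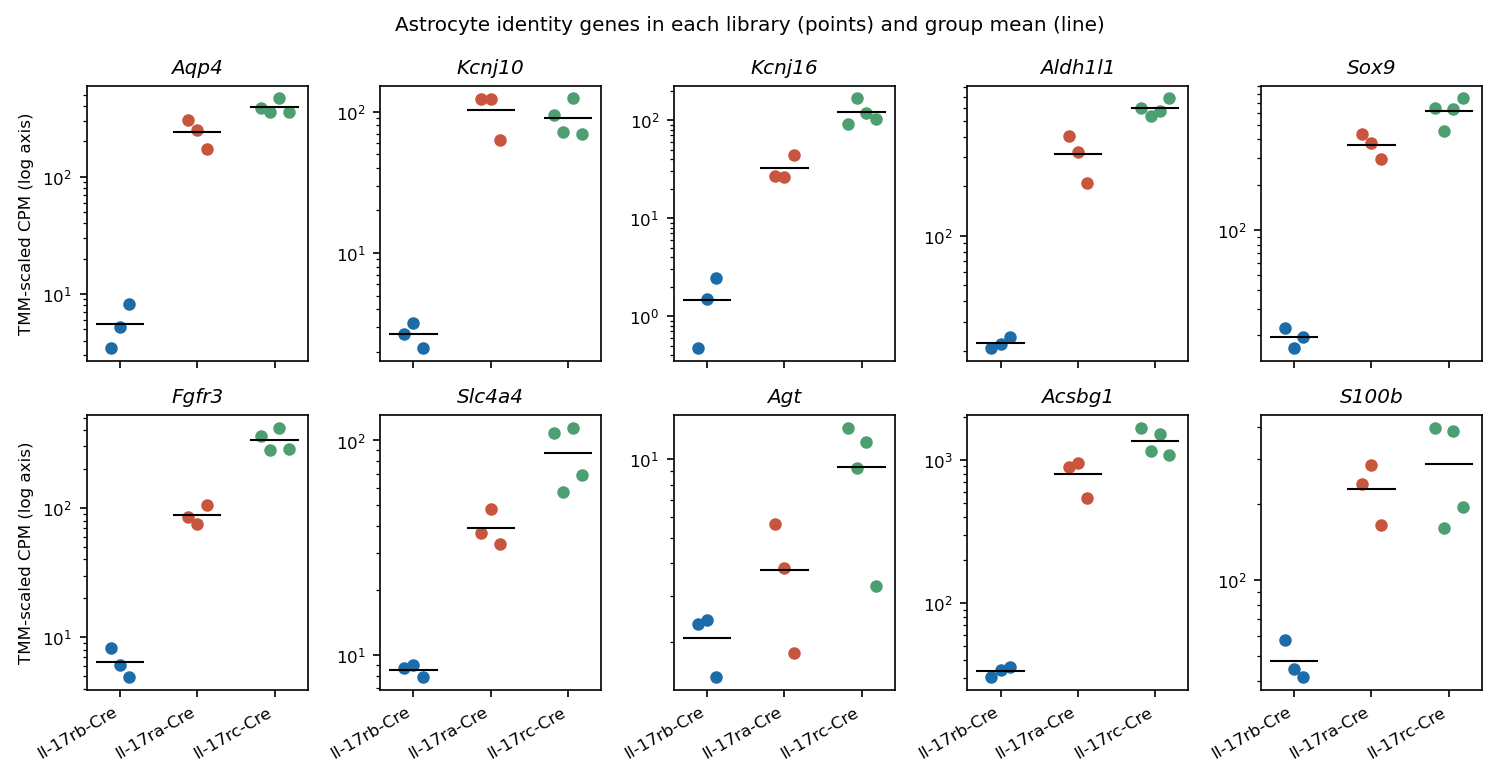
TMM-scaled CPM (log axis, its range set for each gene) of the 10 astrocyte identity genes in each library, with a line at the group mean, for Il-17rb-Cre, Il-17ra-Cre and Il-17rc-Cre. In 9 of the 10 panels every Il-17rb-Cre point lies below every other point; for Agt an Il-17ra-Cre library at 1.8 CPM lies among them.

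Il-17rb-Cre libraries held far less of the astrocyte identity genes than either other group: the 10 genes summed to 144.6 to 157 CPM there, against 1629 to 2541 CPM in Il-17ra-Cre and 3235 to 4358 CPM in Il-17rc-Cre libraries. Against Il-17ra-Cre, 9 of the 10 were lower by edgeR's quasi-likelihood test at an adjusted p of 0.05, while 24.1% of all 20301 genes were called lower and 16.2% higher. The exception was Agt. Against Il-17rc-Cre all 10 were lower, while 21.7% of all genes were called lower and 17.6% higher. The libraries of the groups did not overlap for 9 genes in the first comparison (29.2% of all genes were lower without overlap) and for 10 in the second (25.5%). Group means in Il-17rb-Cre were between 2.32% and 55.1% of those in Il-17ra-Cre (median 6.21%) and between 1.24% and 22.2% of those in Il-17rc-Cre (median 3.04%). The median log2 fold change was -4.03 against Il-17ra-Cre, with -0.09 over all genes, and -5.04 against Il-17rc-Cre, with 0.02 over all genes. Both comparisons use the same 3 Il-17rb-Cre libraries, so they are not independent of each other. In RNA from many cells, fewer astrocytes among the tagged cells and less of these transcripts in each of them cannot be told apart. Without Il-17ra-Cre replicate 3, the library that stood apart, and also without replicates 1 and 2 together, 9 genes were still called lower against Il-17ra-Cre.

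Of the water and ion handling genes, Aqp4, the water channel of the endfeet, was at 3.44, 5.18 and 8.16 CPM in Il-17rb-Cre libraries, against 304, 248 and 172 CPM in Il-17ra-Cre libraries and 383, 353, 463 and 357 CPM in Il-17rc-Cre libraries. Its highest Il-17rb-Cre library was thus far below its lowest library elsewhere, and the log2 fold change was -5.43 ± 0.37 against Il-17ra-Cre (edgeR adjusted p = 9.47e-06). Aqp4 had -6.12 ± 0.37 against Il-17rc-Cre (edgeR adjusted p = 3.57e-06). Kcnj10, the subunit that clears potassium from around active synapses, was at 2.67, 3.19 and 2.12 CPM in Il-17rb-Cre libraries, against 123, 124 and 62.8 CPM in Il-17ra-Cre libraries and 94.3, 72.3, 124 and 69.4 CPM in Il-17rc-Cre libraries. No libraries overlapped between Il-17rb-Cre and the others, and its log2 fold change was -5.28 ± 0.37 against Il-17ra-Cre (edgeR adjusted p = 1.08e-05). Kcnj10 had -5.08 ± 0.36 against Il-17rc-Cre (edgeR adjusted p = 7.82e-06). Kcnj16, which assembles with the Kcnj10 subunit and conducts little by itself, was at 0.469, 1.5 and 2.46 CPM in Il-17rb-Cre libraries, against 26.9, 26.4 and 44.4 CPM in Il-17ra-Cre libraries and 91.2, 166, 118 and 102 CPM in Il-17rc-Cre libraries. It had the lowest mean of the genes in Il-17rb-Cre libraries, with 25, 112 and 172 raw counts, and its log2 fold change was -4.45 ± 0.53 against Il-17ra-Cre (edgeR adjusted p = 0.000188). Kcnj16 had -6.33 ± 0.57 against Il-17rc-Cre (edgeR adjusted p = 3.03e-05). Slc4a4, which moves bicarbonate with sodium and so sets pH around synapses, was at 8.71, 8.91 and 7.83 CPM in Il-17rb-Cre libraries, against 37.1, 47.8 and 32.9 CPM in Il-17ra-Cre libraries and 109, 57.6, 115 and 69 CPM in Il-17rc-Cre libraries. Its Il-17rb-Cre values lay close together and below all others, and its log2 fold change was -2.21 ± 0.28 against Il-17ra-Cre (edgeR adjusted p = 0.000255). Slc4a4 had -3.37 ± 0.28 against Il-17rc-Cre (edgeR adjusted p = 2.02e-05).

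Of the glial fate genes, Sox9 was at 22.3, 16.4 and 19.4 CPM in Il-17rb-Cre libraries, against 431, 379 and 297 CPM in Il-17ra-Cre libraries and 644, 451, 633 and 745 CPM in Il-17rc-Cre libraries. The Il-17rb-Cre values were an order of magnitude lower with no overlap, and the log2 fold change of this transcription factor was -4.25 ± 0.25 against Il-17ra-Cre (edgeR adjusted p = 4.82e-06). Sox9 had -5.00 ± 0.25 against Il-17rc-Cre (edgeR adjusted p = 1.43e-06). Fgfr3, the receptor through which fibroblast growth factors act on astrocytes and their precursors, was at 8.2, 6.11 and 4.87 CPM in Il-17rb-Cre libraries, against 85.9, 74.9 and 105 CPM in Il-17ra-Cre libraries and 359, 281, 419 and 285 CPM in Il-17rc-Cre libraries. It differed more from Il-17rc-Cre than from Il-17ra-Cre, with a log2 fold change of -3.79 ± 0.26 against Il-17ra-Cre (edgeR adjusted p = 1.01e-05). Fgfr3 had -5.72 ± 0.28 against Il-17rc-Cre (edgeR adjusted p = 1.29e-06).

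Of the metabolic enzymes, Aldh1l1, which oxidises formyl-tetrahydrofolate and is widely used as an astrocyte marker, was at 20.6, 22.1 and 24.3 CPM in Il-17rb-Cre libraries, against 402, 323 and 209.6 CPM in Il-17ra-Cre libraries and 593, 534, 572 and 682 CPM in Il-17rc-Cre libraries. Its libraries did not overlap, and the log2 fold change was -3.80 ± 0.24 against Il-17ra-Cre (edgeR adjusted p = 7.91e-06). Aldh1l1 had -4.74 ± 0.25 against Il-17rc-Cre (edgeR adjusted p = 1.88e-06). Acsbg1, an acyl-CoA synthetase of the bubblegum family, was at 30.3, 34.2 and 35.7 CPM in Il-17rb-Cre libraries, against 887, 942 and 539.7 CPM in Il-17ra-Cre libraries and 1675, 1150, 1509 and 1082 CPM in Il-17rc-Cre libraries. It had the highest CPM of the 10 genes in Il-17ra-Cre and Il-17rc-Cre libraries, and the log2 fold change was -4.56 ± 0.28 against Il-17ra-Cre (edgeR adjusted p = 6.42e-06). Acsbg1 had -5.34 ± 0.29 against Il-17rc-Cre (edgeR adjusted p = 1.94e-06).

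Of the secreted and calcium-binding products, S100b was at 58, 44.6 and 41.3 CPM in Il-17rb-Cre libraries, against 239, 284 and 164 CPM in Il-17ra-Cre libraries and 398, 161, 387 and 194 CPM in Il-17rc-Cre libraries. It was the most abundant of the 10 transcripts in Il-17rb-Cre libraries and still did not overlap the others, with a log2 fold change of -2.26 ± 0.38 against Il-17ra-Cre (edgeR adjusted p = 0.00123). S100b had -2.57 ± 0.37 against Il-17rc-Cre (edgeR adjusted p = 0.000498). Agt, the precursor of the angiotensin peptides, was at 2.35, 2.42 and 1.46 CPM in Il-17rb-Cre libraries, against 5.66, 3.82 and 1.8 CPM in Il-17ra-Cre libraries and 13.2, 9.28, 11.6 and 3.27 CPM in Il-17rc-Cre libraries. It had the lowest CPM of the set in Il-17ra-Cre and Il-17rc-Cre libraries, and Il-17ra-Cre replicate 3 fell among the Il-17rb-Cre libraries. The log2 fold change of Agt against Il-17rc-Cre was -2.17 ± 0.54 (edgeR adjusted p = 0.0102). Against Il-17ra-Cre it did not pass the test, at -0.85 ± 0.55 (edgeR adjusted p = 0.241). Without Il-17ra-Cre replicates 1 and 2 its sign turned, to 0.21, and without Il-17rc-Cre replicates 1 and 3 the call against Il-17rc-Cre was lost (edgeR adjusted p = 0.0789).

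**Figure D2:**
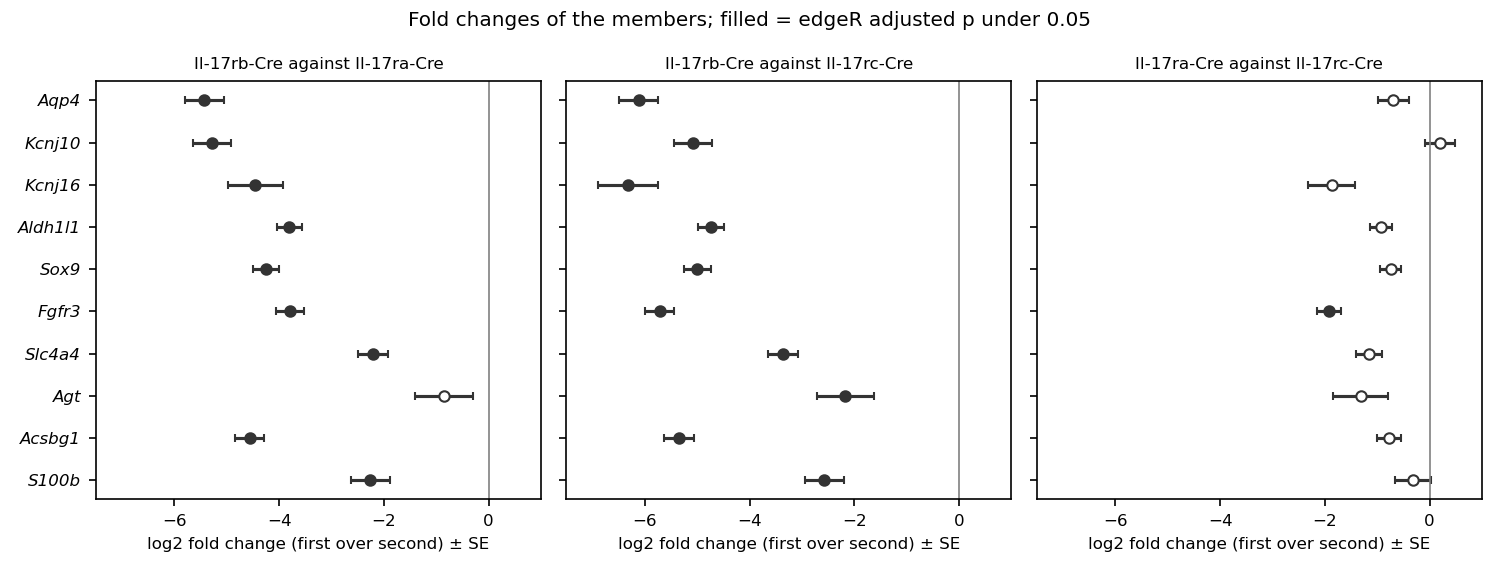
Log2 fold change of each astrocyte identity gene with its standard error (bars) in the 3 comparisons, first-named group over second; filled points passed edgeR's test at an adjusted p of 0.05. All points but Agt against Il-17ra-Cre are filled in the comparisons with Il-17rb-Cre, between -6.32 and -2.17, while in Il-17ra-Cre against Il-17rc-Cre only Fgfr3, at -1.92, is filled.

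Between Il-17ra-Cre and Il-17rc-Cre the gaps were smaller, and Fgfr3 was the single gene of the 10 called, lower in Il-17ra-Cre. Over all genes 0.759% were called lower and 1.32% higher, so that 63.4% of the calls were higher (47.2% with DESeq2 size factors in edgeR). It was at 85.9, 74.9 and 105 CPM in Il-17ra-Cre libraries, against 359, 281, 419 and 285 CPM in Il-17rc-Cre libraries, and every Il-17ra-Cre value was below every Il-17rc-Cre value. Its log2 fold change was -1.92 ± 0.23 (edgeR adjusted p = 0.0154). The size held between -2.19 and -1.72 over the 22 fits made, but the call was made in 13 of them. Among fits without a replicate block it was lost without Il-17ra-Cre replicate 1 (edgeR adjusted p = 0.084), without Il-17ra-Cre replicate 2 (0.0802), without Il-17rc-Cre replicate 1 (0.071), without Il-17rc-Cre replicate 3 (0.0592), without Il-17ra-Cre replicates 1 and 2 (0.13), without Il-17rc-Cre replicates 1 and 3 (0.127) and in a model of only the 2 groups (0.057). DESeq2 called 6 of the 10 genes lower and limma voom 7, so the number called depends on the test. Over all 20301 genes DESeq2 called 1123 lower and limma voom 1863, against 154 with edgeR.

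The other 9 genes did not pass edgeR's test. Without overlap between libraries, 7 of the 10 were lower in Il-17ra-Cre (6.65% of all genes were, and 7.92% were higher) and none was higher. They were Aqp4, Kcnj16, Aldh1l1, Sox9, Fgfr3, Slc4a4 and Acsbg1. The channel subunit Kcnj16 was at 26.9, 26.4 and 44.4 CPM in Il-17ra-Cre libraries, against 91.2, 166, 118 and 102 CPM in Il-17rc-Cre libraries. Its log2 fold change there was -1.87 ± 0.45 (edgeR adjusted p = 0.0628). Slc4a4 had -1.16 ± 0.26 (edgeR adjusted p = 0.0517) and Aldh1l1 -0.93 ± 0.21 (edgeR adjusted p = 0.0543), both just outside the threshold. The values of Aqp4, Sox9 and Acsbg1 were -0.69 ± 0.29, -0.75 ± 0.21 and -0.78 ± 0.23, with edgeR adjusted p-values of 0.237, 0.0905 and 0.106. Kcnj10 had its mean on the other side, at 0.20 ± 0.28 (edgeR adjusted p = 0.79), with 123, 124 and 62.8 CPM in Il-17ra-Cre and 94.3, 72.3, 124 and 69.4 CPM in Il-17rc-Cre libraries overlapping. S100b, at -0.32 ± 0.34 (edgeR adjusted p = 0.703), and Agt, at -1.32 ± 0.52 (edgeR adjusted p = 0.215), overlapped too. Means in Il-17ra-Cre were between 26.4% and 115% of those in Il-17rc-Cre (median 55.3%), and the median log2 fold change was -0.86, with 0.03 over all genes. That median was -0.66 without Il-17ra-Cre replicate 3 and -1.45 with replicate 3 alone. The signs of Kcnj10 and S100b depended on the libraries: Kcnj10 had -0.02 without Il-17ra-Cre replicate 1 and -0.60 without replicates 1 and 2, and S100b had 0.33 without Il-17rc-Cre replicates 1 and 3.

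The genes differed in how far they stood from one another. Each gene's log2 CPM was set against the mean log2 CPM of all 10 in the same library, which takes away the common level of a library. On that scale S100b was at 2.95, 2.41 and 2.31 in Il-17rb-Cre libraries, against 0.983, 1.32 and 0.978 in Il-17ra-Cre and 0.785, -0.131, 0.655 and 0.215 in Il-17rc-Cre libraries. Agt was at -1.68, -1.8 and -2.52 in Il-17rb-Cre libraries, against -4.42, -4.9 and -5.53 in Il-17ra-Cre and -4.13, -4.24, -4.4 and -5.68 in Il-17rc-Cre libraries. Slc4a4 was at 0.211, 0.0822 and -0.0916 in Il-17rb-Cre libraries, against -1.71, -1.25 and -1.35 in Il-17ra-Cre and -1.09, -1.61, -1.1 and -1.28 in Il-17rc-Cre libraries. These 3 genes thus made up more of the set in Il-17rb-Cre libraries, with no overlap. Aqp4 was at -1.13, -0.702 and -0.0323 in Il-17rb-Cre libraries, against 1.33, 1.12 and 1.04 in Il-17ra-Cre and 0.729, 1, 0.914 and 1.09 in Il-17rc-Cre libraries. Kcnj10 and Acsbg1 were also lower on this scale in Il-17rb-Cre libraries than in any other, and Aldh1l1 overlapped in all 3 groups. Between the other 2 groups, Kcnj10 was higher in Il-17ra-Cre, at 0.0277, 0.123 and -0.412, than in Il-17rc-Cre, at -1.29, -1.28, -0.986 and -1.27. Fgfr3 was lower in Il-17ra-Cre, at -0.492, -0.604 and 0.335, than in Il-17rc-Cre, at 0.638, 0.675, 0.77 and 0.768, and S100b was higher in Il-17ra-Cre; none of these 3 overlapped. The values are relative, so a gene that is higher on this scale need not be higher in CPM. The centre is the mean of the same 10 genes, so strong falls of some put others higher. With so few libraries a gene can also separate by chance. The share of all genes that separate on such a scale was not counted, and no test was made on these values.

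**Figure D3:**
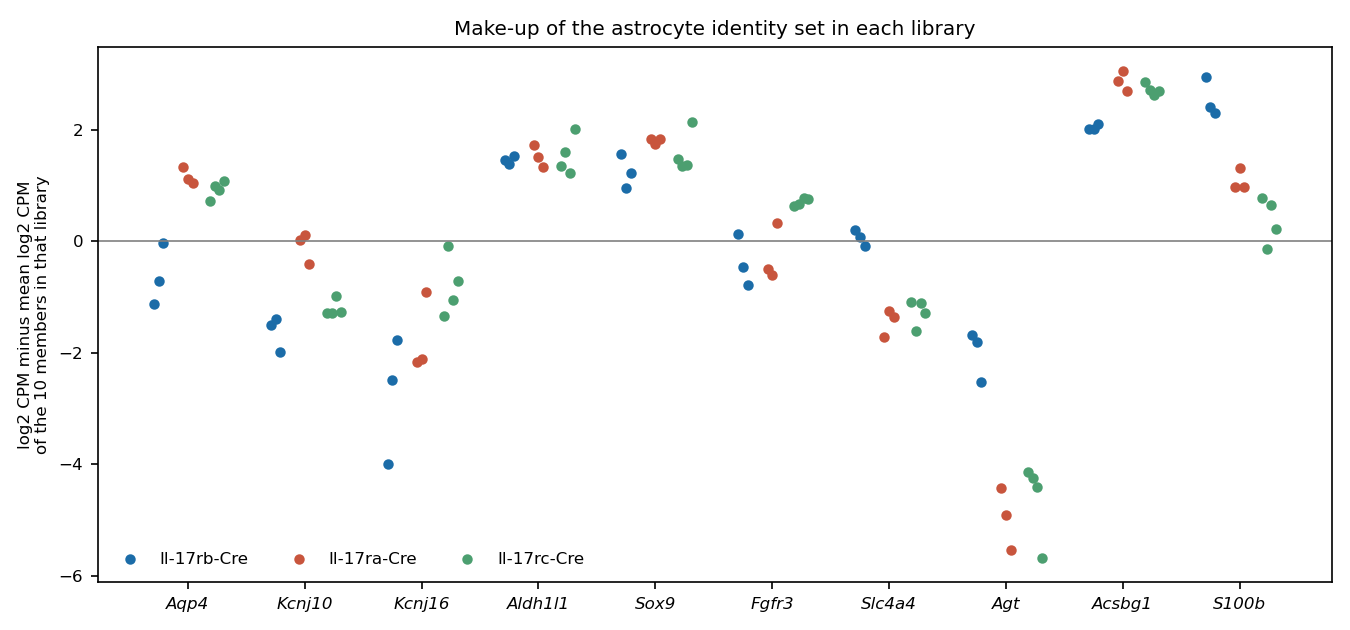
Log2 CPM of each astrocyte identity gene minus the mean log2 CPM of all 10 in the same library, for Il-17rb-Cre, Il-17ra-Cre and Il-17rc-Cre libraries. S100b, Slc4a4 and Agt sit higher and Aqp4, Kcnj10 and Acsbg1 lower in Il-17rb-Cre than in either other group, while Aldh1l1 overlaps throughout.

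The balance of the pair of channel subunits is given as a description, since the ratio was picked after its values were seen. The CPM of Kcnj10 over that of Kcnj16 was 5.68, 2.13 and 0.861 in Il-17rb-Cre libraries, against 4.58, 4.69 and 1.41 in Il-17ra-Cre and 1.03, 0.436, 1.05 and 0.679 in Il-17rc-Cre libraries. All 3 Il-17ra-Cre ratios were above all 4 Il-17rc-Cre ratios. Il-17rb-Cre ratios overlapped those of both other groups. An exact permutation test of the log2 ratio passed in none of the 3 comparisons after Benjamini-Hochberg adjustment over them. For Il-17ra-Cre against Il-17rc-Cre its p was 0.0286, the smallest it can reach, and 0.0857 after adjustment. Because the ratio was picked after its values were seen, nothing is drawn from this p.

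Within groups, most of the genes varied together between libraries. In Il-17ra-Cre, replicate 3 was the lowest library for 8 of the 10 genes and the highest for Kcnj16 and Fgfr3. In Il-17rc-Cre, replicates 1 and 3 were both above replicates 2 and 4 for 7 genes, namely Aqp4, Kcnj10, Fgfr3, Slc4a4, Agt, Acsbg1 and S100b, but not for Kcnj16, Aldh1l1 and Sox9. The share of all genes with these patterns was not counted, so they are not shown to be particular to the 10 genes. Over the genes compared, the root mean square difference in log2 CPM was 0.89 between Il-17rc-Cre replicates 1 and 3. The other pairs of that group were at 1.24 to 1.29. Il-17ra-Cre replicates 1 and 2 were at 1.21, and their pairs with replicate 3 at 1.56 and 1.36. Il-17rb-Cre libraries were even for Slc4a4 (a coefficient of variation of 6.77%), Aldh1l1 (8.18%) and Acsbg1 (8.39%), and spread most for Kcnj16 (67.5%). Agt varied most in the other groups, at 51.3% in Il-17ra-Cre and 46.7% in Il-17rc-Cre. Markers of other cells differed between the same libraries, in both directions. The summed oligodendrocyte markers came to 1217 and 1026 CPM in Il-17rc-Cre replicates 1 and 3, below the 3870 and 2382 CPM of replicates 2 and 4. Excitatory neuron markers summed higher in replicates 1 and 3, with 3287 and 3580 CPM, than in 2 and 4, with 2165 and 2287 CPM, and so did ependymal markers, with 152 and 122 CPM against 49.5 and 86.1 CPM. In Il-17ra-Cre, excitatory neuron markers were at 6679 CPM in replicate 3, against 1557 and 1786 CPM in replicates 1 and 2. Their part in these differences was not tested.

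Marker lists of other cortical cells show what stood beside the astrocyte RNA. Calls in these lists stand beside 24.1% of all genes called lower and 16.2% higher in Il-17rb-Cre against Il-17ra-Cre. Against Il-17rc-Cre the shares were 21.7% lower and 17.6% higher, and for Il-17ra-Cre against Il-17rc-Cre 0.759% lower and 1.32% higher. In the comparisons with Il-17rb-Cre, a marker list with 1 call in a direction has no more calls than that share. The 7 excitatory neuron markers, led by Nrgn, a calmodulin-binding protein of dendrites, summed to 17740 to 20810 CPM in Il-17rb-Cre, 1557 to 6679 CPM in Il-17ra-Cre and 2165 to 3580 CPM in Il-17rc-Cre libraries. All 7 were called higher in Il-17rb-Cre in both of its comparisons. The 6 inhibitory neuron markers, led by the neuropeptide gene Sst, summed to 931 to 1005 CPM in Il-17rb-Cre, 174 to 312 CPM in Il-17ra-Cre and 462 to 572 CPM in Il-17rc-Cre libraries. Of these 6, 3 were higher in Il-17rb-Cre than in Il-17ra-Cre, and 1 was higher and 1 lower than in Il-17rc-Cre. The 7 oligodendrocyte markers, led by the myelin gene Mbp, summed to 1002 to 1139 CPM in Il-17rb-Cre, 5151 to 43540 CPM in Il-17ra-Cre and 1026 to 3870 CPM in Il-17rc-Cre libraries. All 7 were lower in Il-17rb-Cre than in Il-17ra-Cre and 1 lower than in Il-17rc-Cre; all 7 were higher in Il-17ra-Cre than in Il-17rc-Cre, as was C1qa, the leading microglial marker. Both sets of calls between Il-17ra-Cre and Il-17rc-Cre came to 0 in a model of only the 2 groups, and without any 1 of Il-17rb-Cre replicates 1, 2 and 3, Il-17ra-Cre replicates 1 and 2, and Il-17rc-Cre replicates 1, 3 and 4. S100b and Kcnj10, which oligodendrocytes also make, overlapped in CPM between Il-17ra-Cre and Il-17rc-Cre libraries. Relative to the mean of the 10 genes they were the 2 that stood higher in Il-17ra-Cre than in Il-17rc-Cre without overlap, by 0.71 for S100b and 1.12 for Kcnj10 on the log2 scale. The part of oligodendrocytes in these values was not tested.

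Markers of the remaining cell types also had lower sums in Il-17rb-Cre libraries, but fewer of the single genes passed the test in some lists. Over all genes 24.1% were called lower against Il-17ra-Cre and 21.7% against Il-17rc-Cre. The single endothelial and ependymal calls against Il-17ra-Cre, of 5 and 6 genes, are no more than that share. The 7 microglia and macrophage markers summed to 4.34 to 10.1 CPM in Il-17rb-Cre, 256 to 399 CPM in Il-17ra-Cre and 17.2 to 76 CPM in Il-17rc-Cre libraries, and Itgam and Mrc1 were at 0 in all 3 Il-17rb-Cre libraries. All 7 were called lower against Il-17ra-Cre and 4 against Il-17rc-Cre. The 6 mural and fibroblast-like markers, led by the pericyte gene Rgs5, summed to 2.5 to 7.82 CPM in Il-17rb-Cre, 74.7 to 76.4 CPM in Il-17ra-Cre and 204 to 459.9 CPM in Il-17rc-Cre libraries, and all 6 were called lower in both comparisons. The 5 endothelial markers, led by the tight junction gene Cldn5, summed to 1.11 to 5.51 CPM in Il-17rb-Cre, 7.37 to 39.2 CPM in Il-17ra-Cre and 24.5 to 93.9 CPM in Il-17rc-Cre libraries; 1 was called lower against Il-17ra-Cre and 3 against Il-17rc-Cre. Oligodendrocyte precursor markers (5 genes, led by Cspg4) summed to 6.31 to 11.8 CPM in Il-17rb-Cre, 41.1 to 137 CPM in Il-17ra-Cre and 31.8 to 118 CPM in Il-17rc-Cre libraries, and 3 were called lower in each comparison. Ependymal and choroid plexus markers (6 genes, led by Foxj1, a regulator of cilia) summed to 2.72 to 8.07 CPM in Il-17rb-Cre, 51.3 to 75.9 CPM in Il-17ra-Cre and 49.5 to 152 CPM in Il-17rc-Cre libraries. Of these 6, 4 had folds below 0 and 1, Foxj1, was called lower against Il-17ra-Cre, and 2 were called lower against Il-17rc-Cre. Foxj1 alone averaged 3.45 ± 1.34 CPM in Il-17rb-Cre, 62 ± 18.1 CPM in Il-17ra-Cre and 72.8 ± 19.5 CPM in Il-17rc-Cre libraries (SD, n = 3, 3 and 4), most of the sum in Il-17ra-Cre. Ependymal cells also make Sox9, Aqp4 and S100b, and their part in those levels was not tested.

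**Figure D4:**
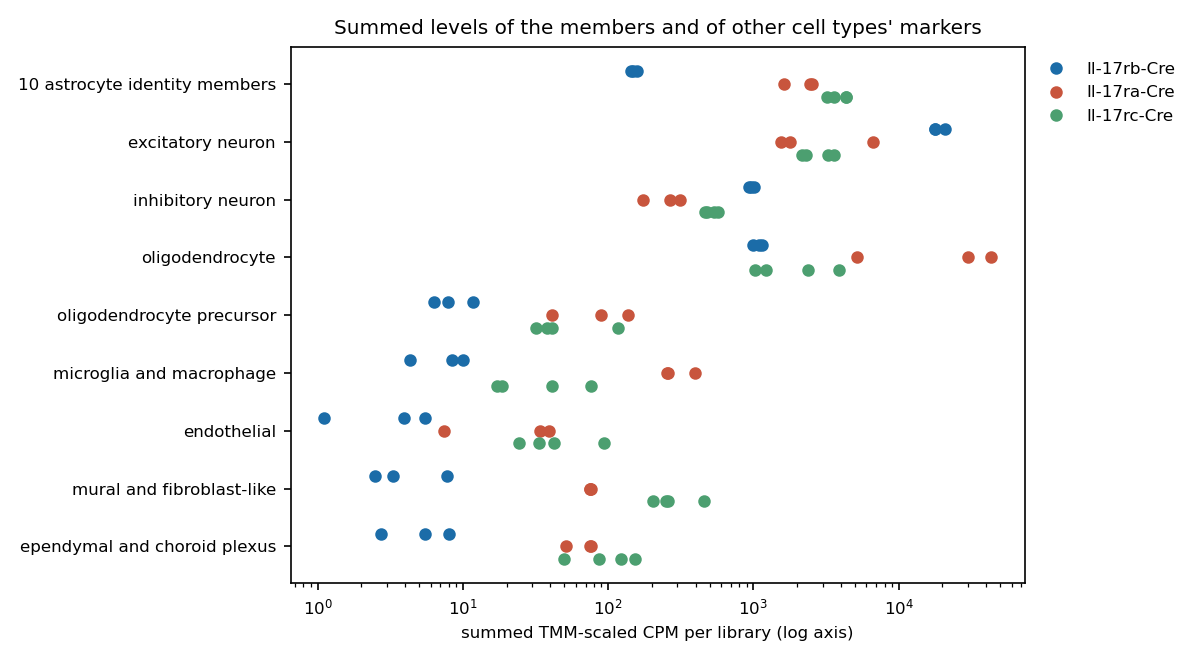
Summed TMM-scaled CPM (log axis) of the 10 astrocyte identity genes and of the marker lists of other cell types in each library of Il-17rb-Cre, Il-17ra-Cre and Il-17rc-Cre. The astrocyte genes are lowest in Il-17rb-Cre libraries, at 144.6 to 157 CPM, where the excitatory neuron markers are highest, at 17740 to 20810 CPM.

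The counts in the lists that follow stand beside 24.1% of all genes called lower and 16.2% higher in Il-17rb-Cre against Il-17ra-Cre. Against Il-17rc-Cre the shares were 21.7% lower and 17.6% higher. For Il-17ra-Cre against Il-17rc-Cre edgeR called 0.759% lower and 1.32% higher. There DESeq2 called 1123 of 20301 genes lower and 978 higher, and limma voom 1863 and 2716. Of 30 further astrocyte-enriched genes, all 30 were lower in Il-17rb-Cre than in Il-17ra-Cre (median log2 fold change -3.72) and than in Il-17rc-Cre (-4.75). Gfap, the intermediate filament that rises in reactive astrocytes, averaged 161 ± 20.1 CPM in Il-17rb-Cre, 6790 ± 1710 CPM in Il-17ra-Cre and 6599 ± 833 CPM in Il-17rc-Cre libraries (SD, n = 3, 3 and 4, as in the means that follow). It was thus the most abundant of the list in Il-17ra-Cre and Il-17rc-Cre and overlapped between them (edgeR adjusted p = 0.949), and its log2 fold change in Il-17rb-Cre was -5.40 ± 0.26 against Il-17ra-Cre (edgeR adjusted p = 2.04e-06) and -5.36 ± 0.26 against Il-17rc-Cre (edgeR adjusted p = 1.06e-06). Aldoc, a glycolytic aldolase, averaged 266 ± 5.22 CPM in Il-17rb-Cre, 1998 ± 1247 CPM in Il-17ra-Cre and 4109 ± 2821 CPM in Il-17rc-Cre libraries, and its log2 fold change was -2.91 ± 0.72 against Il-17ra-Cre (edgeR adjusted p = 0.00933) and -3.95 ± 0.73 against Il-17rc-Cre (edgeR adjusted p = 0.00216). Ndrg2, a stress-response gene of astrocytes, averaged 119 ± 19.6 CPM in Il-17rb-Cre, 992 ± 375 CPM in Il-17ra-Cre and 1774 ± 706 CPM in Il-17rc-Cre libraries, with a log2 fold change of -3.06 ± 0.41 against Il-17ra-Cre (edgeR adjusted p = 0.000358) and -3.90 ± 0.42 against Il-17rc-Cre (edgeR adjusted p = 8.33e-05). Between Il-17ra-Cre and Il-17rc-Cre, 4 of the 30 were lower (15 with DESeq2 and 19 with limma voom) and none higher, and 28 had a fold below 0 (median -0.98). The 4, named after their values were seen, were the transporters Slc6a11 (GABA; log2 fold change -1.77 ± 0.31, edgeR adjusted p = 0.0391) and Slc7a10 (small neutral amino acids; edgeR adjusted p = 0.0467, at 19.4 ± 4.79 CPM in Il-17ra-Cre and 77.9 ± 40.3 CPM in Il-17rc-Cre), the receptor Gpr37l1 (-1.28 ± 0.28, 0.0485) and the sodium pump subunit Atp1b2 (-0.99 ± 0.21, 0.0471). Of this and the following lists together, 9 genes were called lower and 3 higher in that comparison; none was called without Il-17rb-Cre replicate 2, Il-17ra-Cre replicate 1 or 2, or Il-17rc-Cre replicate 1 or 3, while 23 and 9 were without Il-17ra-Cre replicate 3.

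Of 9 genes that anchor Aqp4 at the endfoot or work beside it, 5 were lower in Il-17rb-Cre than in Il-17ra-Cre and 6 lower than in Il-17rc-Cre, none higher, with medians of -0.52 and -1.42. Mlc1, an endfoot membrane protein, averaged 14.9 ± 1.3 CPM in Il-17rb-Cre, 257 ± 99.6 CPM in Il-17ra-Cre and 476 ± 144 CPM in Il-17rc-Cre libraries, and its log2 fold change was -4.11 ± 0.37 against Il-17ra-Cre (edgeR adjusted p = 4.01e-05) and -5.00 ± 0.38 against Il-17rc-Cre (edgeR adjusted p = 1.09e-05). Hepacam, the adhesion protein that holds Mlc1 at the membrane, averaged 13.3 ± 2.56 CPM in Il-17rb-Cre, 260.2 ± 96.5 CPM in Il-17ra-Cre and 326 ± 78.4 CPM in Il-17rc-Cre libraries, with a log2 fold change of -4.29 ± 0.35 against Il-17ra-Cre (edgeR adjusted p = 2.39e-05) and -4.61 ± 0.35 against Il-17rc-Cre (edgeR adjusted p = 1.02e-05). Dtna, a dystrobrevin of the complex that tethers Aqp4, averaged 114 ± 14.6 CPM in Il-17rb-Cre, 162 ± 27.5 CPM in Il-17ra-Cre and 164 ± 18.1 CPM in Il-17rc-Cre libraries, and its log2 fold change was -0.52 ± 0.17 against Il-17ra-Cre (edgeR adjusted p = 0.033) and -0.53 ± 0.16 against Il-17rc-Cre (edgeR adjusted p = 0.0246). None of the 9 passed edgeR's test between Il-17ra-Cre and Il-17rc-Cre. There 8 had folds below 0, 4 had an unadjusted p under 0.05, DESeq2 called 4 lower and limma voom 2. The share of all genes with such an unadjusted p was not counted. Counts at that p, here and in the lists below, therefore have no background to stand beside. Mlc1 and Hepacam also count among the 30 genes above.

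Relatives of the inward rectifiers were mostly higher in Il-17rb-Cre. Of 9 tested Kcnj genes, 6 were higher and 1 lower in Il-17rb-Cre than in Il-17ra-Cre, and 5 were higher and 1 lower than in Il-17rc-Cre, with medians of 1.62 and 1.52. Kcnj9, a subunit of the G protein-gated channels of neurons, averaged 205 ± 49.3 CPM in Il-17rb-Cre, 42.4 ± 20.5 CPM in Il-17ra-Cre and 49.7 ± 5.99 CPM in Il-17rc-Cre libraries, with a log2 fold change of 2.27 ± 0.35 against Il-17ra-Cre (edgeR adjusted p = 0.000799) and 2.04 ± 0.32 against Il-17rc-Cre (edgeR adjusted p = 0.000747). Kcnj4, a rectifier of forebrain neurons, averaged 70.2 ± 9.98 CPM in Il-17rb-Cre, 19.3 ± 8.94 CPM in Il-17ra-Cre and 24.4 ± 7.52 CPM in Il-17rc-Cre libraries, with 1.86 ± 0.36 against Il-17ra-Cre (edgeR adjusted p = 0.00264) and 1.52 ± 0.32 against Il-17rc-Cre (edgeR adjusted p = 0.0045). Kcnj3, another G protein-gated subunit, averaged 45.6 ± 2.7 CPM in Il-17rb-Cre, 11.6 ± 5.28 CPM in Il-17ra-Cre and 11.6 ± 1.89 CPM in Il-17rc-Cre libraries, with 1.97 ± 0.30 against Il-17ra-Cre (edgeR adjusted p = 0.000794) and 1.97 ± 0.28 against Il-17rc-Cre (edgeR adjusted p = 0.000422). The gene that was lower, named after its values were seen, was Kcnj8, the pore of a potassium channel of pericytes, at 0.216 ± 0.197 CPM in Il-17rb-Cre, 5.7 ± 3.94 CPM in Il-17ra-Cre and 45.7 ± 16.2 CPM in Il-17rc-Cre libraries. Kcnj13 was not tested, with at most 8 counts in a library.

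Of 11 bicarbonate transporters and carbonic anhydrases, 4 were higher and 5 lower in Il-17rb-Cre than in Il-17ra-Cre (16.2% and 24.1% of all genes), and 4 were higher and 4 lower than in Il-17rc-Cre (17.6% and 21.7%). Car2, the carbonic anhydrase of oligodendrocytes and some astrocytes, averaged 153 ± 38.2 CPM in Il-17rb-Cre, 4768 ± 3423 CPM in Il-17ra-Cre and 757 ± 204 CPM in Il-17rc-Cre libraries, with a log2 fold change of -4.96 ± 0.63 against Il-17ra-Cre (edgeR adjusted p = 0.000266) and -2.31 ± 0.54 against Il-17rc-Cre (edgeR adjusted p = 0.0075). Between Il-17ra-Cre and Il-17rc-Cre, Car2 was higher in Il-17ra-Cre (2.65 ± 0.51, edgeR adjusted p = 0.0414), as was Car14 (4.33 ± 0.67, 0.0308), and Car8, a catalytically inactive relative, was lower (-2.12 ± 0.42, 0.0443). Car8 was at 3.32, 3.52 and 3.69 CPM in Il-17rb-Cre libraries. It was at 17.7, 25.4 and 35.6 CPM in Il-17ra-Cre and 174, 59, 158 and 66 CPM in Il-17rc-Cre libraries. Car10, another inactive relative found in neurons, averaged 198 ± 16.1 CPM in Il-17rb-Cre, 40.3 ± 21.8 CPM in Il-17ra-Cre and 47.9 ± 7.61 CPM in Il-17rc-Cre libraries, with a log2 fold change of 2.30 ± 0.33 against Il-17ra-Cre (edgeR adjusted p = 0.00054) and 2.05 ± 0.30 against Il-17rc-Cre (edgeR adjusted p = 0.000516). Slc4a3, a chloride bicarbonate exchanger, averaged 76.1 ± 9.14 CPM in Il-17rb-Cre, 34.9 ± 10.4 CPM in Il-17ra-Cre and 41.8 ± 6.42 CPM in Il-17rc-Cre libraries, with 1.12 ± 0.23 against Il-17ra-Cre (edgeR adjusted p = 0.00319) and 0.86 ± 0.21 against Il-17rc-Cre (edgeR adjusted p = 0.00823). Car2 and Car14 were thus higher in the group whose oligodendrocyte markers were higher, and the part of those cells was not tested.

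Among 14 transcription factors that work beside Sox9, 10 were lower and 1 higher in Il-17rb-Cre than in Il-17ra-Cre, and 12 were lower and 1 higher than in Il-17rc-Cre, with medians of -2.34 and -3.29. Dbx2, a homeobox factor, averaged 8.33 ± 1.6 CPM in Il-17rb-Cre, 163 ± 37.9 CPM in Il-17ra-Cre and 341 ± 44.7 CPM in Il-17rc-Cre libraries. Its log2 fold change was -4.29 ± 0.24 against Il-17ra-Cre (edgeR adjusted p = 3.87e-06) and -5.36 ± 0.24 against Il-17rc-Cre (edgeR adjusted p = 9.81e-07), and it was the single factor called between Il-17ra-Cre and Il-17rc-Cre (-1.06 ± 0.20, edgeR adjusted p = 0.0406). Id4, an inhibitor of differentiation, averaged 17.5 ± 4.51 CPM in Il-17rb-Cre, 90.9 ± 18.3 CPM in Il-17ra-Cre and 187 ± 83.8 CPM in Il-17rc-Cre libraries, with a log2 fold change of -2.38 ± 0.37 against Il-17ra-Cre (edgeR adjusted p = 0.00085) and -3.42 ± 0.38 against Il-17rc-Cre (edgeR adjusted p = 0.000103). The factor that was higher in Il-17rb-Cre was Nfix, of the nuclear factor I family shared by neurons and glia, which averaged 277 ± 6.13 CPM in Il-17rb-Cre, 132 ± 17.6 CPM in Il-17ra-Cre and 125 ± 11.9 CPM in Il-17rc-Cre libraries, with 1.06 ± 0.14 against Il-17ra-Cre (edgeR adjusted p = 0.000361) and 1.15 ± 0.13 against Il-17rc-Cre (edgeR adjusted p = 0.000124).

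Around Fgfr3, 14 receptors, ligands and feedback targets of the pathway gave 4 higher and 6 lower in Il-17rb-Cre than in Il-17ra-Cre, and 3 higher and 7 lower than in Il-17rc-Cre. Over all genes 16.2% and 17.6% were called higher in these comparisons, in that order. Fgf13 and Fgf9, of the ligand family, were among those that were higher. Fgf13, an intracellular member of the ligand family that binds sodium channels, averaged 233 ± 18.6 CPM in Il-17rb-Cre, 44.5 ± 20.9 CPM in Il-17ra-Cre and 66.9 ± 12.3 CPM in Il-17rc-Cre libraries, with a log2 fold change of 2.39 ± 0.31 against Il-17ra-Cre (edgeR adjusted p = 0.000287) and 1.80 ± 0.27 against Il-17rc-Cre (edgeR adjusted p = 0.000677). Fgf9, a secreted ligand that binds Fgfr3, averaged 36.8 ± 3.39 CPM in Il-17rb-Cre, 8.3 ± 4.6 CPM in Il-17ra-Cre and 11.5 ± 1.39 CPM in Il-17rc-Cre libraries, with 2.14 ± 0.35 against Il-17ra-Cre (edgeR adjusted p = 0.00108) and 1.68 ± 0.31 against Il-17rc-Cre (edgeR adjusted p = 0.00223). Etv5, a transcription factor induced by the pathway, averaged 198 ± 36.4 CPM in Il-17rb-Cre, 106 ± 7.31 CPM in Il-17ra-Cre and 169 ± 28.5 CPM in Il-17rc-Cre libraries; it was higher than in Il-17ra-Cre (0.90 ± 0.19, edgeR adjusted p = 0.004) but not called against Il-17rc-Cre (edgeR adjusted p = 0.327). Dusp6, a phosphatase of the feedback loop, averaged 159 ± 8.3 CPM in Il-17rb-Cre, 94.4 ± 40.2 CPM in Il-17ra-Cre and 155 ± 29.3 CPM in Il-17rc-Cre libraries and was called in none of the 3 comparisons. The sister receptors, named after their values were seen, were lower in Il-17rb-Cre in both comparisons: Fgfr2 averaged 7.01 ± 1.73 CPM in Il-17rb-Cre, 159 ± 99.7 CPM in Il-17ra-Cre and 104 ± 46.4 CPM in Il-17rc-Cre libraries, and Fgfr1 averaged 6.23 ± 1 CPM in Il-17rb-Cre, 40.2 ± 4.22 CPM in Il-17ra-Cre and 72.1 ± 9.47 CPM in Il-17rc-Cre libraries. Between Il-17ra-Cre and Il-17rc-Cre the calls were 2, both lower: Fgfr1 (-0.84 ± 0.17, edgeR adjusted p = 0.0427) and Etv4, a target factor (-2.03 ± 0.41, 0.0454). Fgfr2 was at a log2 fold change of 0.62 ± 0.46 there and did not pass (edgeR adjusted p = 0.547).

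Several of the enzymes and receptors that act on angiotensinogen and its products had few counts. Of 11 listed, 4 (Ren1, Agtr1a, Agtr1b and Agtr2) had too few counts to be tested, with at most 15 counts in a library. Of the other 7, 1 was higher and 2 lower in Il-17rb-Cre than in Il-17ra-Cre, close to the 16.2% and 24.1% of all genes. Against Il-17rc-Cre 2 were higher and 3 lower, beside 17.6% and 21.7% of all genes. Atp6ap2, the prorenin receptor and a part of the proton pump, averaged 252 ± 20.8 CPM in Il-17rb-Cre, 322 ± 77.2 CPM in Il-17ra-Cre and 156 ± 40.4 CPM in Il-17rc-Cre libraries; it was called higher in Il-17rb-Cre than in Il-17rc-Cre (0.69 ± 0.23, edgeR adjusted p = 0.0333) and higher in Il-17ra-Cre than in Il-17rc-Cre (1.04 ± 0.23, 0.0485). Mas1, the receptor of a short angiotensin fragment, averaged 15.4 ± 0.952 CPM in Il-17rb-Cre, 5.14 ± 3.23 CPM in Il-17ra-Cre and 4.32 ± 0.537 CPM in Il-17rc-Cre libraries, with a log2 fold change of 1.58 ± 0.48 against Il-17ra-Cre (edgeR adjusted p = 0.0255) and 1.83 ± 0.44 against Il-17rc-Cre (edgeR adjusted p = 0.00879). Lnpep, the aminopeptidase that binds another fragment, averaged 11.6 ± 1.17 CPM in Il-17rb-Cre, 19.1 ± 6.09 CPM in Il-17ra-Cre and 11.5 ± 4.83 CPM in Il-17rc-Cre libraries and was not called. Enpep and Anpep, peptidases of vessels and other tissues, were at 0 counts in all Il-17rb-Cre libraries and averaged 4.74 and 0.796 CPM, in that order, in Il-17rc-Cre libraries, and no fold is given for them.

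Folate genes around Aldh1l1 gave 8 lower and 2 higher of 16 in Il-17rb-Cre against Il-17ra-Cre, and 8 lower and none higher against Il-17rc-Cre, with medians of -0.92 and -0.78. Gcsh, of the glycine cleavage system, averaged 62.6 ± 5.95 CPM in Il-17rb-Cre, 113 ± 15.5 CPM in Il-17ra-Cre and 137 ± 12.8 CPM in Il-17rc-Cre libraries, with a log2 fold change of -0.85 ± 0.15 against Il-17ra-Cre (edgeR adjusted p = 0.00164) and -1.13 ± 0.14 against Il-17rc-Cre (edgeR adjusted p = 0.000245). Mthfd1, the cytosolic enzyme that feeds formyl-tetrahydrofolate to Aldh1l1, averaged 31 ± 6.66 CPM in Il-17rb-Cre, 62.4 ± 23 CPM in Il-17ra-Cre and 96.5 ± 15.3 CPM in Il-17rc-Cre libraries, with -1.01 ± 0.29 against Il-17ra-Cre (edgeR adjusted p = 0.0185) and -1.64 ± 0.28 against Il-17rc-Cre (edgeR adjusted p = 0.0013). Shmt2, the mitochondrial serine hydroxymethyltransferase, averaged 38.9 ± 8.81 CPM in Il-17rb-Cre, 55.8 ± 8.28 CPM in Il-17ra-Cre and 66.6 ± 5.39 CPM in Il-17rc-Cre libraries, with -0.52 ± 0.19 against Il-17ra-Cre (edgeR adjusted p = 0.0485) and -0.78 ± 0.18 against Il-17rc-Cre (edgeR adjusted p = 0.00653). The genes higher against Il-17ra-Cre were Mthfd2l, at 16.1 ± 0.943 CPM in Il-17rb-Cre, 6.99 ± 2.67 CPM in Il-17ra-Cre and 15.1 ± 4 CPM in Il-17rc-Cre libraries, and Ftcd, which was at 0 counts in all Il-17ra-Cre libraries and at 0.429 CPM on average in Il-17rb-Cre libraries. None of the 16 was called by edgeR between Il-17ra-Cre and Il-17rc-Cre, where 4 had an unadjusted p under 0.05; DESeq2 called 1 lower and 1 higher, and limma voom 2 lower and 1 higher.

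Of 11 acyl-CoA synthetases and fatty acid transporters beside Acsbg1, 5 were lower and 1 higher in Il-17rb-Cre in each of its comparisons, with medians of -1.02 and -1.27. Acsl6, a brain isoform that handles long unsaturated fatty acids, averaged 50.6 ± 3.92 CPM in Il-17rb-Cre, 108 ± 13.6 CPM in Il-17ra-Cre and 234 ± 31.6 CPM in Il-17rc-Cre libraries, with a log2 fold change of -1.09 ± 0.16 against Il-17ra-Cre (edgeR adjusted p = 0.000568) and -2.21 ± 0.16 against Il-17rc-Cre (edgeR adjusted p = 8.12e-06); it was the single one called between Il-17ra-Cre and Il-17rc-Cre (-1.11 ± 0.15, edgeR adjusted p = 0.0208). Acsl3, an isoform of the endoplasmic reticulum and lipid droplets, averaged 50.1 ± 6.49 CPM in Il-17rb-Cre, 117 ± 58.7 CPM in Il-17ra-Cre and 161 ± 12.3 CPM in Il-17rc-Cre libraries, with -1.22 ± 0.32 against Il-17ra-Cre (edgeR adjusted p = 0.0132) and -1.68 ± 0.31 against Il-17rc-Cre (edgeR adjusted p = 0.00221). Slc27a1, a fatty acid transport protein, averaged 26.1 ± 6.76 CPM in Il-17rb-Cre, 96.5 ± 22.3 CPM in Il-17ra-Cre and 240.1 ± 92.1 CPM in Il-17rc-Cre libraries, with -1.88 ± 0.35 against Il-17ra-Cre (edgeR adjusted p = 0.00214) and -3.20 ± 0.36 against Il-17rc-Cre (edgeR adjusted p = 0.00011). Its relative Slc27a4 was the one that was higher, at 80.3 ± 8.59 CPM in Il-17rb-Cre, 37.9 ± 5.27 CPM in Il-17ra-Cre and 40 ± 3.36 CPM in Il-17rc-Cre libraries, with 1.08 ± 0.15 against Il-17ra-Cre (edgeR adjusted p = 0.000491) and 1.01 ± 0.14 against Il-17rc-Cre (edgeR adjusted p = 0.000417).

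Of 8 S100 genes tested beside S100b, 7 were lower in Il-17rb-Cre in each of its comparisons, with medians of -4.41 and -4.34. None was called by edgeR between Il-17ra-Cre and Il-17rc-Cre, where 0 had an unadjusted p under 0.05, DESeq2 called 0 and limma voom 1 higher. S100a16, a calcium-binding protein enriched in astrocytes, averaged 41.6 ± 10.7 CPM in Il-17rb-Cre, 1076 ± 279 CPM in Il-17ra-Cre and 1273 ± 267 CPM in Il-17rc-Cre libraries, with a log2 fold change of -4.69 ± 0.31 against Il-17ra-Cre (edgeR adjusted p = 9.15e-06) and -4.93 ± 0.31 against Il-17rc-Cre (edgeR adjusted p = 3.95e-06). S100a1, which can pair with the S100b protein, averaged 34.1 ± 6.05 CPM in Il-17rb-Cre, 637 ± 24.8 CPM in Il-17ra-Cre and 632 ± 82.8 CPM in Il-17rc-Cre libraries, with -4.22 ± 0.20 against Il-17ra-Cre (edgeR adjusted p = 2.01e-06) and -4.21 ± 0.19 against Il-17rc-Cre (edgeR adjusted p = 9.75e-07). S100a6, also made by other cells, averaged 50.5 ± 17.1 CPM in Il-17rb-Cre, 628 ± 301 CPM in Il-17ra-Cre and 575 ± 449.8 CPM in Il-17rc-Cre libraries, with -3.64 ± 0.68 against Il-17ra-Cre (edgeR adjusted p = 0.00216) and -3.51 ± 0.66 against Il-17rc-Cre (edgeR adjusted p = 0.0022). S100a5, S100a8 and S100a9 were not tested, with at most 33 counts in a library.

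The genes whose pattern over the 10 libraries was most like the mean of the 10 astrocyte genes were searched among 5923 genes whose log2 CPM averaged 5 or more. Likeness was the root mean square difference between centred log2 CPM values. In order they were Cdc42ep4 (0.2), Itgb5 (0.218), Arhgef26 (0.223), Ephx1 (0.224), Gstm1 (0.23), Eps8 (0.233), Pld2 (0.234) and Adhfe1 (0.241). Cdc42ep4, an effector of the small GTPase that shapes the actin skeleton, was at 10.7, 12.8 and 13.4 CPM in Il-17rb-Cre libraries, against 223, 234 and 166 CPM in Il-17ra-Cre and 429, 275, 382 and 360.5 CPM in Il-17rc-Cre libraries. Gstm1, a glutathione transferase, was the most abundant, at 86.8, 84 and 83.8 CPM in Il-17rb-Cre libraries, against 1568, 1264 and 720.4 CPM in Il-17ra-Cre and 2121, 1743, 1965 and 1250 CPM in Il-17rc-Cre libraries. Of the astrocyte genes themselves, Aldh1l1 was nearest to their common mean (0.22) and Agt farthest (1.37). Over the 7 Il-17ra-Cre and Il-17rc-Cre libraries alone the 8 nearest genes were others, led by Kifc3, and 0 of the 8 were shared.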

How the data were processed

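RNA bound to GFP-tagged ribosomes was taken by the authors from mouse cortex, and libraries were made with the SMART-Seq v4 kit, per the labels' protocols; this kit does not mark strand. The authors deposited raw counts per gene, from reads aligned with STAR 2.7.5c to GRCm38 per the submitters' processing notes; for read assignment and annotation the sources used here name nothing. Without strand, reads on overlapping genes cannot be told apart: 13.4% of the exon length of Aldh1l1 and 13.9% of that of Fgfr3 lie on other genes, which had at most 114 counts in a library. All identifiers matched GENCODE M21. edgeR 4.0.16 (R 4.3.3) filtered genes by group (20301 kept, 35235 removed), scaled by TMM and fitted all 10 libraries in 1 quasi-likelihood model, with Benjamini-Hochberg adjustment at 0.05 within each comparison. The biological coefficient of variation was 0.489. Errors of log2 fold changes are standard errors, and those of CPM are SD. No pair of libraries within a group was a duplicate, and pairs across groups were not checked for this.

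The members, the lists and the alternatives were chosen with earlier results of these data known. Genes named from a list are the 3 with the highest mean CPM and up to 2 called against the direction of the members, unless said otherwise, the top gene of each marker list and the 8 nearest in pattern. The alternatives were DESeq2 1.42.0, limma 3.58.1 voom, 2 other scalings, 2 filters, a model of 2 groups, replicate blocks and left-out libraries.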

Additional observations from a re-analysis of the deposited data

Results flagged for a closer look

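Of 65 values examined in the 4 Il-17rc-Cre libraries, 2 had 1 library far from the others, both in replicate 2; chance flags about 1 in 20 groups. Cspg4, a gene of oligodendrocyte precursors and pericytes, was at 96.7 CPM in Il-17rc-Cre replicate 2, with the nearest library at 26.2 CPM. The summed oligodendrocyte precursor markers, which include Cspg4, were at 117.6 CPM in that library, with the nearest at 41 CPM. None of the 10 astrocyte identity genes had such a library.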

How the results depend on the processing

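Of 210 values of the 10 genes over 21 alternatives in each comparison, 209 kept direction and side of the threshold for Il-17rb-Cre against Il-17ra-Cre and 209 against Il-17rc-Cre. The exceptions were Agt at a log2 fold change of 0.2112 without Il-17ra-Cre replicates 1 and 2, and Agt at -1.64 without Il-17rc-Cre replicates 1 and 3. For Il-17ra-Cre against Il-17rc-Cre 174 kept both, 24 newly passed, 9 no longer passed and 3 changed sign. Kcnj10 changed sign at -0.02315 without Il-17ra-Cre replicate 1 and at -0.596 without Il-17ra-Cre replicates 1 and 2. Its values with 1 library left out ranged up to 0.4567, on the side of the main fit. S100b changed sign at 0.3257 without Il-17rc-Cre replicates 1 and 3. The cause was not tested. Of the values of other named genes that had been called, 790 of 839 stayed called for Il-17rb-Cre against Il-17ra-Cre, 750 of 777 against Il-17rc-Cre and 179 of 462 for Il-17ra-Cre against Il-17rc-Cre, and 0 changed sign.

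Against Il-17ra-Cre, 3290 genes were higher in Il-17rb-Cre, 5085 with limma voom and 1485 without Il-17ra-Cre replicates 1 and 2, where 2709 in place of 4894 were lower and 12 in place of 19 of the listed genes were higher. Against Il-17rc-Cre, 3571 genes were higher, 5582 with limma voom, 2256 without Il-17rc-Cre replicates 1 and 3, and 2199 to 4262 with 1 library left out.

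For Il-17ra-Cre against Il-17rc-Cre the number of the 10 genes called lower was 1. It was 3 with upper quartile scaling, 6 with DESeq2, 7 with limma voom, 4 with no filter, 4 with a filter at 1 CPM, 0 with only 2 groups, 0 without Il-17ra-Cre replicates 1 and 2, 0 without Il-17rc-Cre replicates 1 and 3, and 0 to 4 with 1 library left out. Over all genes 154 were lower and 267 higher. DESeq2 gave 1123 and 978, limma voom 1863 and 2716, the filter at 1 CPM 295 lower, the model of 2 groups 1 and 0, and each pair of left-out libraries 0 and 0. With 1 library left out the numbers were 0 to 1320 lower and 0 to 1518 higher. Of the listed genes 9 were lower and 3 higher; DESeq2 gave 36 and 6, limma voom 44 and 12, the filter at 1 CPM 16 lower, the model of 2 groups and the pairs of left-out libraries 0 and 0, and 1 library left out 0 to 23 and 0 to 9. Without Il-17ra-Cre replicates 1 and 2 the median of the 10 genes was -1.447. The share of higher genes among those called was 63.4%, and 47.2% with DESeq2 size factors in edgeR. Upper quartile scaling put the median of all genes at 0.04 for Il-17rb-Cre against Il-17ra-Cre and 0.127 against Il-17rc-Cre.

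For libraries with the same replicate number, deviations from group means correlated between -0.0826 and 0.181. The value was over 0.1 in 2 of 9 pairs by the title's number and in 1 by the library name's. With 3 or 4 libraries per group these correlations cannot tell if the numbers pair libraries, and the main fit assumed no pairing. With the title's number as a replicate block 0 of the 10 genes were lower in Il-17ra-Cre than in Il-17rc-Cre, with 2 genes lower and 0 higher over all and 0 and 0 of the listed. With the library name's number as the block there were 0 of the 10, 1 lower and 0 higher over all, and 0 and 0 of the listed. With Il-17rb-Cre the blocks changed no call among the 10.

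Low counts limit Kcnj16, Agt and Kcnj10 in Il-17rb-Cre libraries, with at most 172, 181 and 239 raw counts in that order. This also limits the ratio of Kcnj10 to Kcnj16 there. Agt was low in Il-17ra-Cre libraries too, with 210, 144 and 308 raw counts. With 1 Il-17ra-Cre library left, that library is assumed to vary like the other groups. Amplified reads without molecular identifiers are not independent molecules.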
